A study of Oryza sativa with 10 samples.

Results

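In rice seeds collected without the husk, 50 of 55801 counted features carried far fewer reads at 72 than at 48 hours after fertilization (HAF) in every genotype sequenced. They were the genes with at least 5 CPM (counts scaled to a library total of 1000000) in each of the 5 libraries at 48 HAF and, in each genotype, a 72 HAF level at most 0.4 times its 48 HAF level, leaving out 4 named loci. Of all features, 16100 met the minimum level and could have been chosen. The members were chosen by the CPM values of all 10 libraries, so their difference between the times is a description and was not tested. The study asked about MADS78 and MADS79, type I MADS-box transcription factor genes, in early seed development. The genotypes were OE78 and OE79, lines labelled as overexpressing MADS78 (line OE78-8) and MADS79 (line OE79-3), CR78 and CR79, lines labelled as CRISPR lines of MADS78 (Cr78_8.22.2) and of MADS79 (Cr79_11.25.3), and the wild type (WT). The sources used here do not give the promoter of the overexpression constructs, the edited alleles, the cultivar or the number of plants or seeds behind a library. Each genotype gave 1 library at 72 HAF and 1 at 48 HAF, so no level at a single time has a replicate, and each manipulation is represented by 1 line.

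Between these times the rice endosperm passes from a syncytium of free nuclei to walled cells, while the maternal nucellus is broken down, the pericarp stays green and the embryo is still small. A seed without its husk holds all of these tissues. In bulk seed RNA, fewer cells of a type and less RNA per cell cannot be told apart. Of the 50 members, 3 have a name that could be checked by position. NCED3 encodes a 9-cis-epoxycarotenoid dioxygenase, the step that commits carotenoids to abscisic acid. LOX1.1 encodes a lipoxygenase, an enzyme class that oxidises free fatty acids. WRKY62 encodes a WRKY transcription factor known in rice as a negative regulator of defence. The other 47 members are given by locus identifier, with no role.

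Library totals ran from 12267337 counts in CR79 at 72 HAF to 18040600 in WT at 72 HAF. MADS78 (LOC_Os09g02830) had 134 CPM in OE78 at 72 HAF and at most 0.375 in each other library, so it was raised in OE78 at 72 HAF only. MADS79 (LOC_Os01g74440) had 0.456 CPM at 72 HAF and 2.33 at 48 HAF in OE79, against 1.11 and 1.96 in WT, so its counts were not raised in the libraries labelled OE79. Neither gene reached 2 CPM in WT, and the CRISPR labels were not checked by counts. The 2 libraries of OE78 and those of CR78 did not deviate together. When each library was set against the mean of its time, a line's 2 libraries correlated at -0.24 in OE78 and -0.01 in CR78, against 0.29 to 0.37 in the other genotypes (Pearson's r across 16100 genes, which are not independent replicates). This does not show which library of a line differs. HSP101, a heat shock chaperone gene, had 146 CPM in CR78 at 48 HAF and 9.18 to 17.8 in the other libraries. Counts that could turn on these lines are also given without their 48 HAF libraries. Summed levels of 7 anther markers were 3.98 to 6.14 CPM at 72 HAF and 4.97 to 8.00 at 48 HAF, with 1 to 4 of the 7 at 0 in a library. The anther list held 8 genes. GAMYB was not in this sum, and the highest level on the list, above any the 7 could give, was 49.7 CPM. The green pericarp marker Cab2R had 2061 to 2752 CPM at 72 HAF and 821 to 1629 at 48 HAF.

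The members ran from moderately to weakly counted genes. Their mean level at 48 HAF had a median of 22.3 CPM and a range of 6.23 to 162. It was under 10 CPM in 9 members, between 10 and 50 in 27, between 50 and 100 in 9, and 100 or more in 5. At 72 HAF the median of their mean levels was 4.40 CPM. Summed over the members, the level was 474 CPM in OE78, 648 in OE79, 271 in CR78, 233 in CR79 and 468 in WT at 72 HAF, against 2061 in OE78, 2076 in OE79, 1869.6 in CR78, 1425 in CR79 and 2207 in WT at 48 HAF. The members differed more between genotypes at 72 HAF than at 48 HAF. The highest library exceeded the lowest by a median of 3.57 times at 72 HAF and 1.85 times at 48 HAF, against 1.45 and 1.39 times over the 16100 genes. The rule used these levels, and the 16100 genes were not matched to the members for level, so this is a description. The part of counting noise in the spread at 72 HAF was not tested. Read numbers were ample at 48 HAF, where each member had 80 or more reads in each library. At 72 HAF, 3 members had under 20 reads in OE78, 0 in OE79, 11 in CR78, 22 in CR79 and 1 in WT. A single ratio in CR79, where a member can rest on 1 read, is accordingly imprecise.

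**Figure D1:**
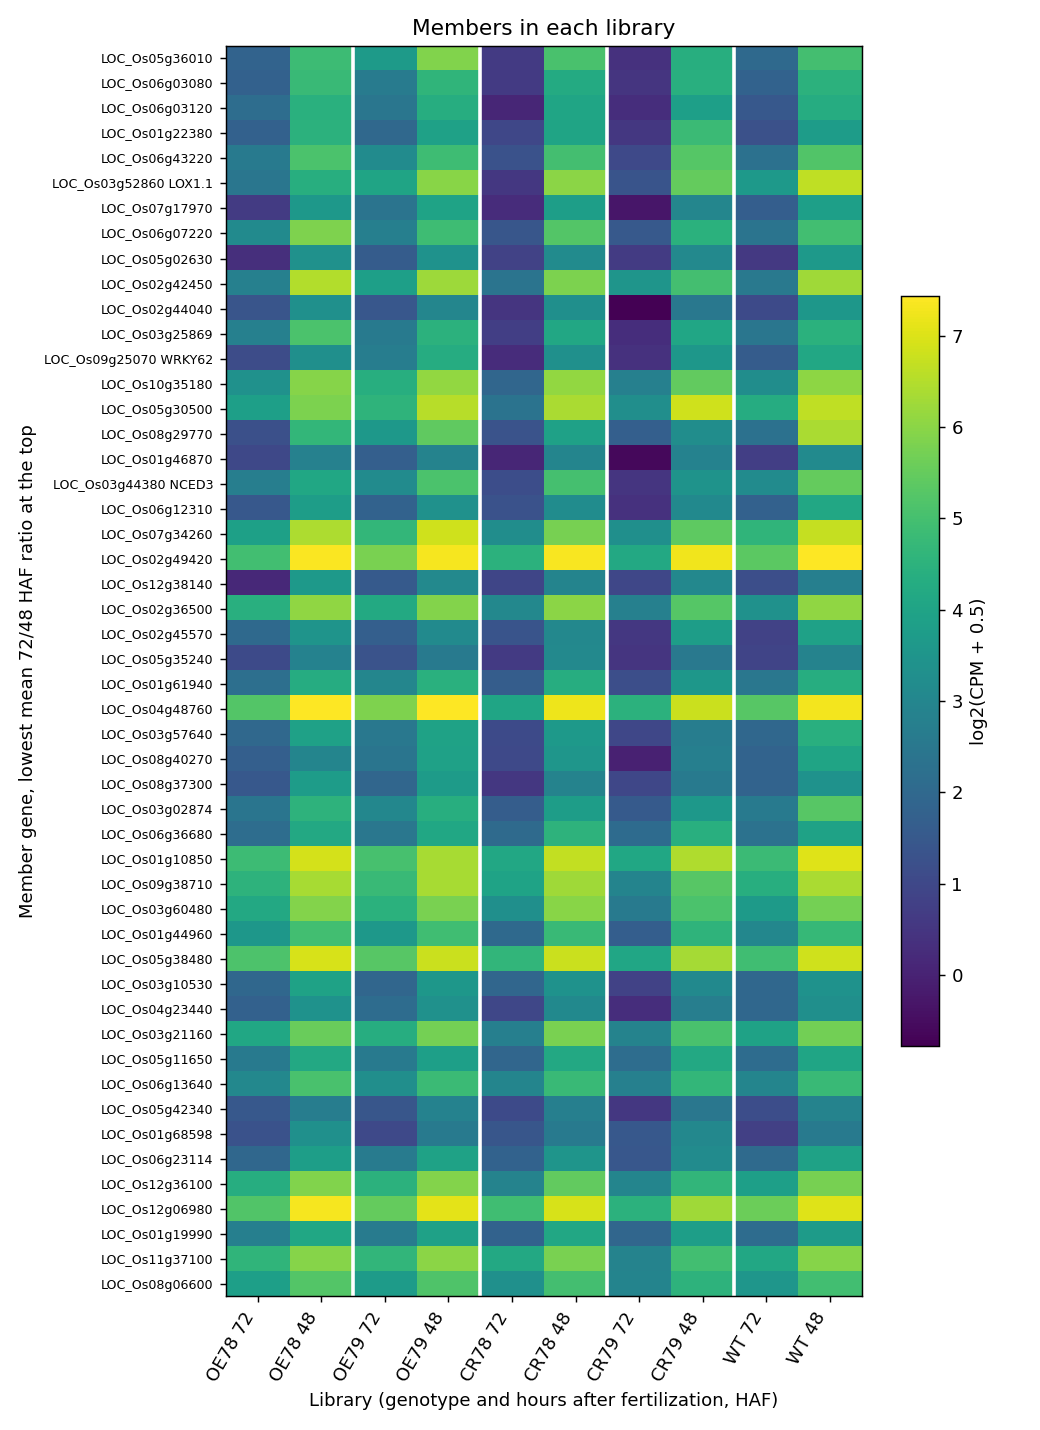
Levels of the 50 members (rows, lowest mean ratio at the top) in each of the 10 libraries (columns, with 72 HAF left of 48 HAF within each genotype), as log2(CPM + 0.5). Each member is darker at 72 HAF in all 5 genotypes, as the rule requires, and the CR78 and CR79 columns at 72 HAF hold the lowest sums, 271 and 233 CPM.

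The ratios that chose the members are given here as a description, and nothing is read from their order among genotypes. The median ratio of 72 HAF to 48 HAF levels was 0.228 in OE78, 0.313 in OE79, 0.137 in CR78, 0.164 in CR79 and 0.214 in WT, while over the 16100 genes it was 0.887 in OE78, 0.935 in OE79, 0.913 in CR78, 0.865 in CR79 and 0.975 in WT. In the libraries labelled OE79 the members were the closest to the limit, with the highest of the 5 ratios in 35 members (19.6% of the 16100 genes and 45.2% of the 378 genes whose highest ratio lay between 0.4 and 0.6) and the lowest in 0. CR78 had the lowest ratio in 22 members and CR79 in 19, against 5 in OE78 and 4 in WT. The shares of the 16100 genes with their lowest ratio in each genotype were not computed, so these counts have no background. Both CRISPR ratios lay below the other 3 in 30 members (19.8% of the 16100 genes and 37.6% of the 378), and below both ratios of the lines labelled as overexpressing in 37 (26.7% and 45.8%). Scaling by TMM, which corrects library totals for composition, moved every log2 ratio up by 0.17 in OE78, 0.07 in OE79, 0.11 in CR78, 0.16 in CR79 and 0.02 in WT. With TMM the CRISPR ratios lay below the other 3 in 28 members (15.9% of the 16100 genes and 33.1% of the 378), and 34 of the 50 genes met the rule.

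**Figure D2:**
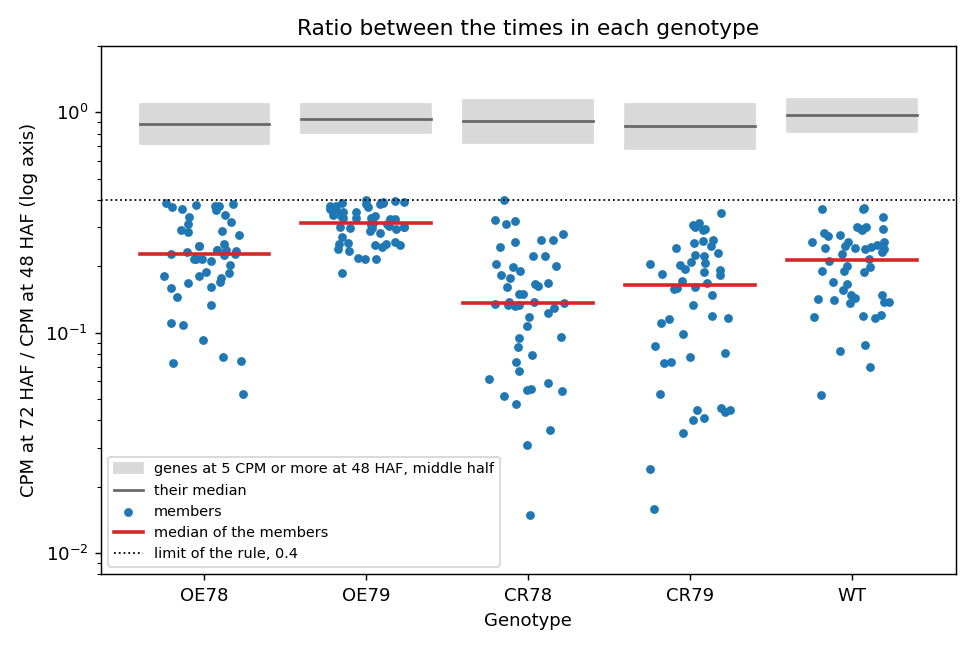
Ratio of CPM at 72 HAF to CPM at 48 HAF (log axis) for each member (points) in each genotype, with the members' median (red line), the limit of the rule at 0.4 (dotted line) and, in grey, the median and middle quartiles of the 16100 genes at 5 CPM or more. The member medians run from 0.137 in CR78 to 0.313 in OE79.

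The limit cut through a continuous range. Just inside it lay LOC_Os01g68598, with a highest ratio of 0.399 in CR78, LOC_Os01g10850 with 0.398 in OE79 and LOC_Os01g46870 with 0.397 in OE79. Just outside lay LOC_Os05g02300 with 0.401, LOC_Os05g39880 with 0.402 and LOC_Os03g02290 with 0.406, all in OE79. In all, 378 genes at the minimum level had a highest ratio between 0.4 and 0.6.

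The ratio of each genotype was also read in genes chosen without that ratio. These were the genes that met the whole rule in the other 4 genotypes and had at least 5 CPM at 48 HAF in the genotype read, so the 48 HAF library of that genotype set the minimum level but its 72 HAF library had no part in the choice. Of 63 such genes for OE78, 50 (79.4%) had a ratio of 0.4 or less in OE78, against 4.19% of all genes at the minimum level there. For OE79 it was 50 of 122 (41.0%), against 1.73%. For CR78 it was 50 of 52 (96.2%) against 6.53%, for CR79 50 of 73 (68.5%) against 6.2%, and for WT 50 of 64 (78.1%) against 3.92%. Without that minimum the other 4 genotypes took 69 genes for OE78, 124 for OE79, 67 for CR78, 82 for CR79 and 65 for WT. The genes that met it are the 50 members by construction, so what varied was the number that did not. Nearly all of the others were still lower at 72 HAF. The counts that follow include the 50 members, which are below 1 by the rule, and for CR78 they hold few others. The ratio read was below 1 for 63 of 63 genes in OE78 (66.7% of all genes), 122 of 122 in OE79 (62.2%), 52 of 52 in CR78 (62.1%), 72 of 73 in CR79 (66.7%) and 64 of 64 in WT (55.2%). The ratio in OE79 thus left out the most of these genes.

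**Figure D3:**
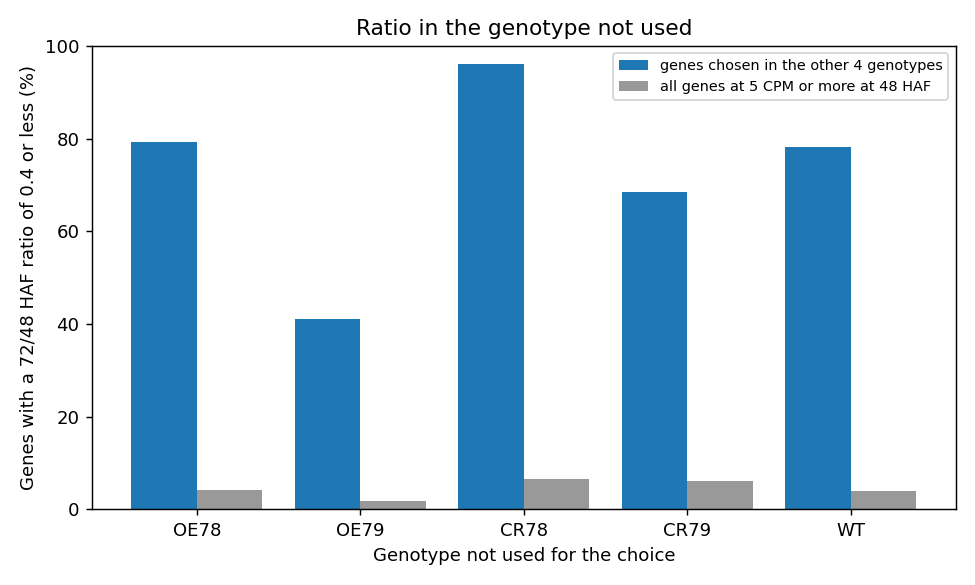
Share of genes (percent) with a 72 HAF to 48 HAF ratio of 0.4 or less in the genotype named on the axis, for genes that met the rule in the other 4 genotypes and the minimum level at 48 HAF in that one (blue, 52 to 122 genes) and for all genes at 5 CPM or more at 48 HAF in that genotype (grey). The blue bars run from 41.0% in OE79 to 96.2% in CR78, and the grey bars from 1.73% to 6.53%.

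At 72 HAF the libraries labelled OE79 had the highest level and a CRISPR line the lowest in all but 1 of the 10 most heavily counted members. OE79 was the highest library at 72 HAF in 20.9% of the 16100 genes and 58.7% of the 378 genes just above the limit. The share that also had a CRISPR line lowest was not computed. The rule used these levels, so nothing is read from their order. Levels are compared between libraries and not between genes, since CPM is not corrected for gene length. LOC_Os02g49420, with the highest mean level at 48 HAF (162 CPM), had 30.1 CPM in OE78, 54.1 in OE79, 22.3 in CR78, 17.4 in CR79 and 40.7 in WT at 72 HAF, against 166 in OE78, 161 in OE79, 165 in CR78, 152 in CR79 and 169.5 in WT at 48 HAF. LOC_Os04g48760 had 37.3 CPM in OE78, 57.6 in OE79, 16.1 in CR78, 21.8 in CR79 and 39.0 in WT at 72 HAF, against 172 in OE78, 169 in OE79, 149.8 in CR78, 108 in CR79 and 157 in WT at 48 HAF. The first had nearly equal levels at 48 HAF in all genotypes, and in both genes the 2 CRISPR lines were the lowest at 72 HAF. LOC_Os05g38480 had 34.9 CPM in OE78, 38.6 in OE79, 24.5 in CR78, 16.3 in CR79 and 29.8 in WT at 72 HAF, against 122 in OE78, 109 in OE79, 109.7 in CR78, 79.3 in CR79 and 115 in WT at 48 HAF. Its 72 HAF levels did not overlap between the lines labelled as overexpressing and the CRISPR lines, and WT lay between them. LOC_Os01g10850 had 16.7 to 32.8 CPM at 72 HAF and 82.4 to 130.4 at 48 HAF. LOC_Os10g35180 had 9.81 CPM in OE78, 20.1 in OE79, 3.27 in CR78, 6.44 in CR79 and 8.98 in WT at 72 HAF, against 60.8 in OE78, 67.8 in OE79, 68.9 in CR78, 43.7 in CR79 and 65.4 in WT at 48 HAF. Its level in CR78 was the highest of the 5 at 48 HAF and the lowest at 72 HAF.

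In 3 further abundant members CR79 or WT stood out. LOC_Os02g42450 had 6.45 CPM in OE78, 13.9 in OE79, 4.75 in CR78, 10.8 in CR79 and 5.38 in WT at 72 HAF, against 89.1 in OE78, 74.4 in OE79, 55.4 in CR78, 30.7 in CR79 and 76.9 in WT at 48 HAF. CR79 was the lowest library at 48 HAF and the second highest at 72 HAF, and the ratios of the gene ran from 0.0700 to 0.350. LOC_Os05g30500 had 14.05 CPM in OE78, 23.1 in OE79, 4.62 in CR78, 9.21 in CR79 and 19.1 in WT at 72 HAF, against 55.7 in OE78, 92.3 in OE79, 83.9 in CR78, 114 in CR79 and 100.2 in WT at 48 HAF. There CR79 was the highest library at 48 HAF and, with CR78, the lowest at 72 HAF. LOC_Os12g06980 had 36.1 CPM in OE78, 45.0 in OE79, 29.5 in CR78, 22.2 in CR79 and 47.6 in WT at 72 HAF, against 159 in OE78, 137 in OE79, 121 in CR78, 75.8 in CR79 and 131 in WT at 48 HAF, so WT was the highest library at 72 HAF.

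The 5 members with the lowest mean ratio had 0.578 to 1.93 CPM in the CRISPR lines at 72 HAF. LOC_Os05g36010 had the lowest mean ratio (0.102), with 3.10 CPM in OE78, 12.5 in OE79, 1.03 in CR78, 0.815 in CR79 and 3.60 in WT at 72 HAF, against 28.1 in OE78, 58.3 in OE79, 33.2 in CR78, 20.2 in CR79 and 31.1 in WT at 48 HAF. Both OE79 levels stood above those of the other genotypes at their time, which lay within 0.815 to 3.60 CPM at 72 HAF. LOC_Os06g03080 (mean ratio 0.117) had 2.91 CPM in OE78, 5.73 in OE79, 1.03 in CR78, 0.897 in CR79 and 2.99 in WT at 72 HAF, against 26.9 in OE78, 23.9 in OE79, 18.5 in CR78, 20.6 in CR79 and 22.1 in WT at 48 HAF. LOC_Os06g03120 (mean ratio 0.128) had 3.99 CPM in OE78, 4.89 in OE79, 0.578 in CR78, 0.734 in CR79 and 2.27 in WT at 72 HAF, against 21.3 in OE78, 19.9 in OE79, 16.1 in CR78, 13.96 in CR79 and 19.3 in WT at 48 HAF. These are the only 2 members within 10 loci of each other in identifier order, being 4 loci apart, and in both the CRISPR libraries at 72 HAF lay below the other 3 without overlap. How reads shared between neighbouring copies were assigned is not stated in the labels. LOC_Os01g22380 (mean ratio 0.128) had 0.978 to 3.45 CPM at 72 HAF and 13.2 to 27.8 at 48 HAF. LOC_Os06g43220 (mean ratio 0.135) had 1.55 to 8.53 CPM at 72 HAF and 28.9 to 37.7 at 48 HAF. In both, CR79 was the highest library at 48 HAF and the lowest at 72 HAF.

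Members also differed in how evenly the genotypes declined. The SD of the log2 ratio over the 5 genotypes had a median of 0.62 over the members. It was smallest for LOC_Os08g06600 (0.14), whose ratios ran from 0.310 to 0.380, then for LOC_Os06g13640 (0.18, 0.237 to 0.331) and LOC_Os07g34260 (0.23, 0.167 to 0.229). It was largest for LOX1.1 (1.75, 0.0149 to 0.255), LOC_Os02g44040 (1.66, 0.0159 to 0.301) and LOC_Os01g46870 (1.56, 0.0240 to 0.397). In LOC_Os02g44040 the lowest ratio, that of CR79, rests on 1 read at 72 HAF.

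NCED3 (LOC_Os03g44380) had 6.08 CPM in OE78, 8.53 in OE79, 1.73 in CR78, 0.897 in CR79 and 8.48 in WT at 72 HAF, against 16.95 in OE78, 33.8 in OE79, 32.0 in CR78, 10.3 in CR79 and 44.8 in WT at 48 HAF. Its 72 HAF levels in the CRISPR lines lay below the other 3, while at 48 HAF CR78 was close to OE79 and only CR79 and OE78 were low. Among 7 genes of abscisic acid turnover that were tested over both times in all 10 libraries, 0 rose, 2 fell and 5 did not pass (edgeR, adjusted p under 0.05), with a median log2 fold change of -1.22, against -0.02 over all 25354 tested genes, of which 12.9% fell and 15.2% rose. One of those that fell is NCED3, which the rule chose, and the other is LOC_Os07g05940. The catabolic genes ABA8ox1 (LOC_Os02g47470) and ABA8ox3 (LOC_Os09g28390), whose cytochrome P450 products degrade abscisic acid, had log2 fold changes of -0.98 (adjusted p = 0.306 in edgeR) and -1.22 (adjusted p = 0.154 in edgeR). ABA8ox1 had 66.0 CPM in OE78, 137 in OE79, 18.5 in CR78, 6.36 in CR79 and 50.6 in WT at 72 HAF, against 44.7 in OE78, 82.6 in OE79, 80.2 in CR78, 119 in CR79 and 105 in WT at 48 HAF. It was higher at 72 HAF in both lines labelled as overexpressing and lower in the CRISPR lines and WT. The count of abscisic acid genes that fell was 1 without either WT, OE78 or CR78 library, and 1 without OE78 and CR78 at 48 HAF together.

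LOX1.1 (LOC_Os03g52860) had 4.94 CPM in OE78, 15.8 in OE79, 0.963 in CR78, 2.04 in CR79 and 12.03 in WT at 72 HAF, against 20.01 in OE78, 61.9 in OE79, 64.5 in CR78, 44.6 in CR79 and 101 in WT at 48 HAF. WT had the highest level at 48 HAF and the libraries labelled OE79 at 72 HAF, and OE78 was the lowest at 48 HAF. Jasmonates, defence hormones made from fatty acids through a lipoxygenase step, act by removing JAZ repressors, whose own genes respond to the hormone. Lipoxygenases differ in their products, and whether LOX1.1 serves that step was not tested. All 5 JAZ genes tested fell (edgeR, adjusted p under 0.05), with a median log2 fold change of -2.42, although none was a member. Their highest ratios lay between 0.487 and 1.17. JAZ10 (LOC_Os03g08330) had 34.5 CPM in OE78, 57.0 in OE79, 7.06 in CR78, 3.18 in CR79 and 17.8 in WT at 72 HAF, against 51.0 in OE78, 111 in OE79, 133 in CR78, 107 in CR79 and 190.3 in WT at 48 HAF. OE78 was the lowest library at 48 HAF and the second highest at 72 HAF, so the smallest difference between the times, and the log2 fold change of JAZ10 over the genotypes was -2.66 (SE 0.685, adjusted p = 0.0216 in edgeR). The count of JAZ genes that fell was 2 without either WT library, either CR78 library or CR79 at 72 HAF, 3 without CR79 at 48 HAF, and 4 without OE78 and CR78 at 48 HAF together.

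WRKY62 (LOC_Os09g25070) had 1.71 CPM in OE78, 5.93 in OE79, 0.706 in CR78, 0.815 in CR79 and 2.55 in WT at 72 HAF, against 9.51 in OE78, 19.1 in OE79, 9.58 in CR78, 11.23 in CR79 and 17.2 in WT at 48 HAF. Its ratios were 0.180 in OE78, 0.310 in OE79, 0.0737 in CR78, 0.0726 in CR79 and 0.148 in WT. Its neighbour WRKY76 (LOC_Os09g25060), also known in rice as a negative regulator of defence, was counted more heavily and was no member. The ratios of WRKY76 in OE78 and in OE79 both lay above the limit of the rule, with 0.661 in OE79. WRKY76 had 40.6 CPM in OE78, 77.1 in OE79, 14.5 in CR78, 2.85 in CR79 and 35.4 in WT at 72 HAF, against 64.2 in OE78, 117 in OE79, 153 in CR78, 99.3 in CR79 and 177 in WT at 48 HAF. Both genes had the lowest 72 HAF levels in the CRISPR lines and the highest in the libraries labelled OE79. Of 10 tested defence and stress factors, 0 rose, 6 fell and 4 did not pass (edgeR, adjusted p under 0.05), with a median log2 fold change of -1.50. WRKY71 (LOC_Os02g08440), a further WRKY transcription factor gene, fell by 2.74 on the log2 scale (SE 0.701, adjusted p = 0.0212 in edgeR), and PBZ1 (LOC_Os12g36880), a pathogenesis-related PR10 protein gene, by 1.07 (SE 0.215, adjusted p = 0.00772 in edgeR). DREB1A (LOC_Os09g35030), a cold-response factor gene, did not pass, with a log2 fold change of -0.65 (adjusted p = 0.678 in edgeR). The count that fell was 3 without either WT or CR78 library, and 3 without OE78 and CR78 at 48 HAF together.

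**Figure D4:**
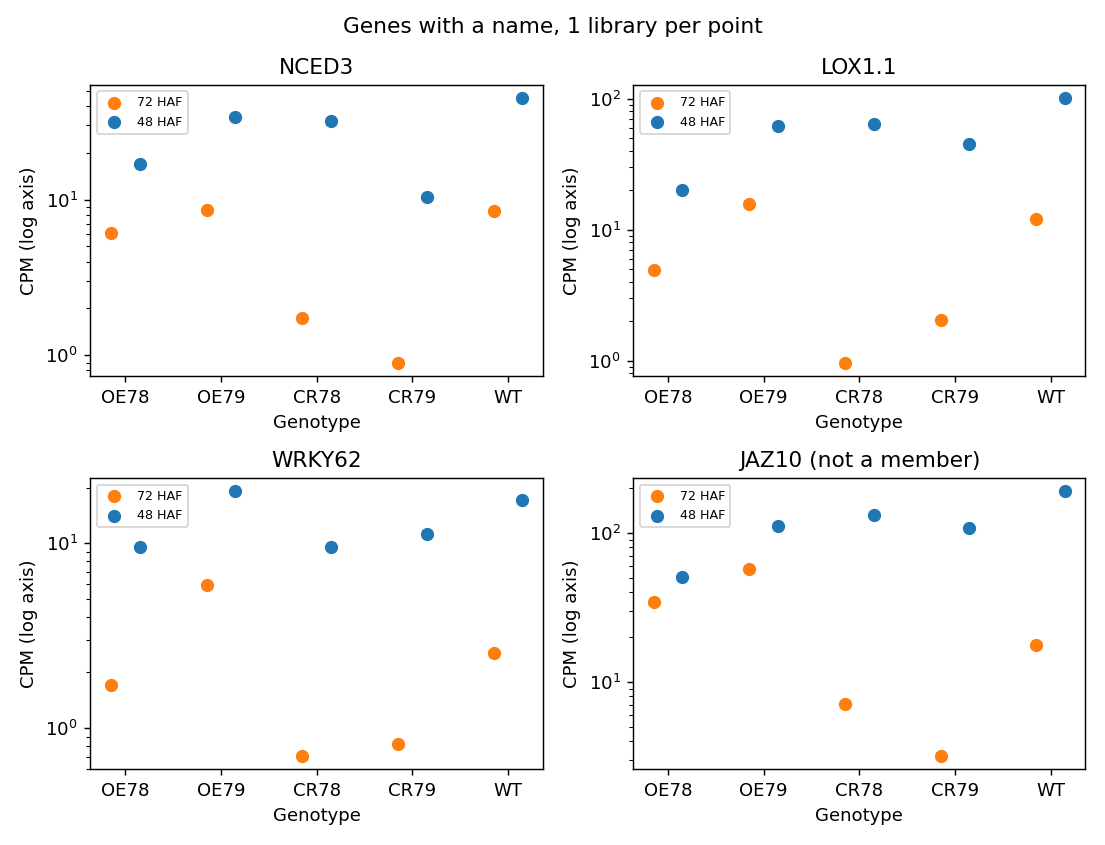
CPM (log axis) of NCED3, LOX1.1, WRKY62 and, for comparison, the non-member JAZ10 in each genotype, with 72 HAF (orange) left of 48 HAF (blue) and 1 library per point. In the 3 members the orange points of CR78 and CR79 lie lowest, at 0.706 to 2.04 CPM, and in JAZ10 they are at 7.06 and 3.18 CPM.

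Of 174 listed genes, 110 met the minimum level and 1, NCED3, was a member, where 50 of all 16100 genes at that level were. The lists covered MADS-box, cell cycle, homeobox, hormone, defence, cell wall, sugar, chromatin, flavonoid, aquaporin and tissue marker genes. DNA replication and cell cycle genes mostly fell. Of 14 tested, 12 fell, 1 rose and 1 did not pass (edgeR, adjusted p under 0.05), with a median log2 fold change of -0.87. The endosperm factors NF-YB1, RPBF and RISBZ1 all rose. By chromosome, 8 members lay on 3, 8 on 6, 7 on 1 and 7 on 5. Chromosome 6 held 16% of the members and 7.83% of the 16100 genes, chromosome 4 held 4% and 8.46%, and no 3 members lay within 10 loci.

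At 72 HAF the CRISPR lines had the lowest levels of most members. The levels in this and the next paragraph are values that the rule used, as are those that set the 378 genes apart. They are a description, and nothing is read from their order among genotypes. Both CRISPR libraries lay below the other 3 in 42 of 50 members at 72 HAF, against 25.5% of the 16100 genes and 225 of the 378 genes just above the limit (59.5%). At 48 HAF they did so in 18 members, against 18.4% of the 16100 genes and 138 of the 378 (36.5%). With TMM scaling the 72 HAF count was 40, against 19.6% of the 16100 genes and 51.3% of the 378. CR78 was below WT in 46 members at 72 HAF and in 35 at 48 HAF, where 60.6% and 49.5% of the 16100 genes were. CR79 was below WT in 46 members at 72 HAF and in 42 at 48 HAF, where 65.0% and 50.7% were. Their median log2 differences from WT at 72 HAF were -0.91 in CR78 and -1.12 in CR79, and at 48 HAF -0.16 and -0.60. The members' median in CR78 was thus close to WT at 48 HAF, while in CR79 it was below WT at both times.

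In the lines labelled as overexpressing, OE78 was below WT in 23 members at 72 HAF and 27 at 48 HAF, where 54.5% and 34.9% of the 16100 genes were, with median log2 differences of 0.08 and -0.03. With TMM scaling these counts were 21 and 31, and the shares of the 16100 genes under that scaling were not computed. In the libraries labelled OE79, 2 members were below WT at 72 HAF and 25 at 48 HAF, where 54.3% and 45.3% of the 16100 genes were, with medians of 0.51 and 0.01. OE79 was the highest of the 5 libraries in 39 members at 72 HAF, against 20.9% of the 16100 genes and 58.7% of the 378 genes just above the limit. The 8 members in which the CRISPR libraries at 72 HAF did not both lie below the other 3 were LOC_Os01g68598, LOC_Os02g42450, LOC_Os02g45570, LOC_Os05g02630, LOC_Os05g11650, LOC_Os08g29770, LOC_Os11g37100 and LOC_Os12g38140. In LOC_Os01g68598 the order was turned round, with 1.96 CPM in OE78, 1.56 in OE79, 2.18 in CR78, 2.28 in CR79 and 1.22 in WT at 72 HAF. LOC_Os08g29770 had 1.84 CPM in OE78, 11.5 in OE79, 1.99 in CR78, 2.77 in CR79 and 4.38 in WT at 72 HAF, so OE78 joined the CRISPR lines there.

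Markers of other tissues differed between the same libraries. Endosperm factors summed over NF-YB1, RPBF and RISBZ1 had 50.9 CPM in OE78, 25.1 in OE79, 134 in CR78, 101 in CR79 and 25.6 in WT at 72 HAF, against 10.3 in OE78, 1.56 in OE79, 6.69 in CR78, 17.1 in CR79 and 1.25 in WT at 48 HAF. The embryo marker OSH1 had 6.33 CPM in OE78, 12.7 in OE79, 2.12 in CR78, 1.47 in CR79 and 8.26 in WT at 72 HAF, against 25.6 in OE78, 19.7 in OE79, 22.4 in CR78, 9.39 in CR79 and 12.1 in WT at 48 HAF. Endosperm factors were thus highest, and OSH1 lowest, in the CRISPR lines at 72 HAF, where the members were lowest. OSH1 is a single gene and was lower at 72 than at 48 HAF in all 5 genotypes. How its level relates to the amount of embryo was not tested. Of 9 tested genes on its list of homeobox, BABY BOOM and YABBY genes, 1 rose, 4 fell and 4 did not pass (edgeR, adjusted p under 0.05). The 5 JAZ genes together had 78.1 CPM in OE78, 119 in OE79, 21.4 in CR78, 17.5 in CR79 and 38.9 in WT at 72 HAF, against 107 in OE78, 249 in OE79, 283 in CR78, 208 in CR79 and 437 in WT at 48 HAF, with the same order at 72 HAF as the members' sums in OE79, OE78, WT, CR78 and CR79. The part of these differences in the members' pattern was not tested.

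Averaged over both times, single members passed a test in 2 comparisons. The test was the quasi-likelihood test of edgeR with genotype and time as additive terms, all 10 libraries in the fit and adjustment over 25354 genes, so a line's 2 times serve as its replicates. The same libraries chose the members. The rule capped the ratio in each genotype, and the scatter of these ratios enters the residual of the fit. The members' counts and p-values in all line comparisons are therefore not independent of the choice. In CR79 against WT, 4 members were lower and 0 higher, against 0.726% of all tested genes lower and 1.46% higher. At an unadjusted p under 0.05, 22 members were lower and 0 higher, where 21.8% of all tested genes passed in either direction. LOC_Os07g34260 had 14.3 CPM in OE78, 24.6 in OE79, 8.98 in CR78, 9.46 in CR79 and 23.4 in WT at 72 HAF, against 85.0 in OE78, 115 in OE79, 53.7 in CR78, 41.4 in CR79 and 103 in WT at 48 HAF. Both CRISPR lines were lowest at 48 HAF and at 72 HAF, and its log2 fold change in CR79 against WT was -1.28 (SE 0.156, adjusted p = 0.0138 in edgeR). LOC_Os09g38710 had 22.7 CPM in OE78, 27.0 in OE79, 15.5 in CR78, 7.09 in CR79 and 20.2 in WT at 72 HAF, against 81.5 in OE78, 82.3 in OE79, 75.9 in CR78, 39.0 in CR79 and 83.1 in WT at 48 HAF. CR79 stood below the other 4 genotypes at each time, and the log2 fold change was -1.23 (SE 0.201, adjusted p = 0.0302 in edgeR). LOC_Os12g06980, described above, had -0.91 (SE 0.161, adjusted p = 0.0346 in edgeR). LOC_Os11g37100 had 23.5 CPM in OE78, 24.4 in OE79, 17.6 in CR78, 6.85 in CR79 and 17.0 in WT at 72 HAF, against 61.3 in OE78, 63.8 in OE79, 54.6 in CR78, 30.6 in CR79 and 61.2 in WT at 48 HAF. Only CR79 was low there, with a log2 fold change of -1.08 (SE 0.203, adjusted p = 0.0394 in edgeR).

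The calls in CR79 against WT, 555 over all genes and 4 over the members, depended on the libraries used. Without WT at 72 or 48 HAF 0 members and 8 or 11 of all genes were called, without CR79 at 72 or 48 HAF 0 members and 52 or 143 genes, without OE79 at 72 or 48 HAF 2 members and 172 or 170 genes, and without OE78 and CR78 at 48 HAF together 1 member and 74 genes. DESeq2 called 9 members (4.72% of all genes in either direction). In CR78 against WT 0 members passed, against 0.0749% of all tested genes higher and 0% lower, with 8 lower at an unadjusted p under 0.05 (5.4% of all genes in either direction) and 1 by DESeq2 (0.371% of all genes). In OE78 against WT 0 passed, against 0.134% higher and 0.00789% lower, with 4 at an unadjusted p under 0.05 (4.82%) and 0 by DESeq2 (0.513%). In the libraries labelled OE79 against WT 0 passed, against 0.146% higher and 0.00789% lower, with 1 at an unadjusted p under 0.05 (3.3%) and 0 by DESeq2 (0.426%). The comparisons share the WT libraries. The members' median log2 fold changes were 0.00 in OE78 and 0.21 in OE79, both labelled as overexpressing, and -0.39 in CR78 and -0.69 in CR79, both labelled as CRISPR lines, against medians of all tested genes between -0.01 and 0.00.

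Most members were higher in the lines labelled as overexpressing than in the CRISPR lines, although the counts of the target gene were raised in OE78 at 72 HAF alone. The fold change was positive in 48 of 50 members, against 50.4% of all tested genes, with a median of 0.76 against 0.00 on the log2 scale. The same libraries chose the members, so the counts in this paragraph are a description and not independent of the choice. The share for the 378 genes just above the limit was not computed. Of the members 2 passed, both higher in the lines labelled as overexpressing (0.213% of all tested genes were higher and 0.359% lower), and 31 at an unadjusted p under 0.05, all higher, where 18.1% of all genes passed in either direction. DESeq2 called 18 (3.03% of all genes in either direction). LOC_Os07g34260 had a log2 fold change of 0.99 (SE 0.109, adjusted p = 0.0133 in edgeR) and LOC_Os09g38710 of 0.84 (SE 0.141, adjusted p = 0.0483 in edgeR). NCED3 did not pass, with a log2 fold change of 1.15 (SE 0.395, adjusted p = 0.188 in edgeR), nor did WRKY62, with 0.95 (SE 0.329, adjusted p = 0.191 in edgeR), nor LOX1.1, with 0.50 (SE 0.566, adjusted p = 0.675 in edgeR). Over all genes 145 were called. The members' count of 2 became 0 without any of the OE78, OE79, CR78 or CR79 libraries at 72 HAF (6 to 11 of all genes), 1 without any other library except CR78 at 48 HAF (56 to 101), 4 without CR78 at 48 HAF (124), and was 2 without OE78 and CR78 at 48 HAF together (78). The number of members higher in the lines labelled as overexpressing lay between 46 and 49 in these runs.

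**Figure D5:**
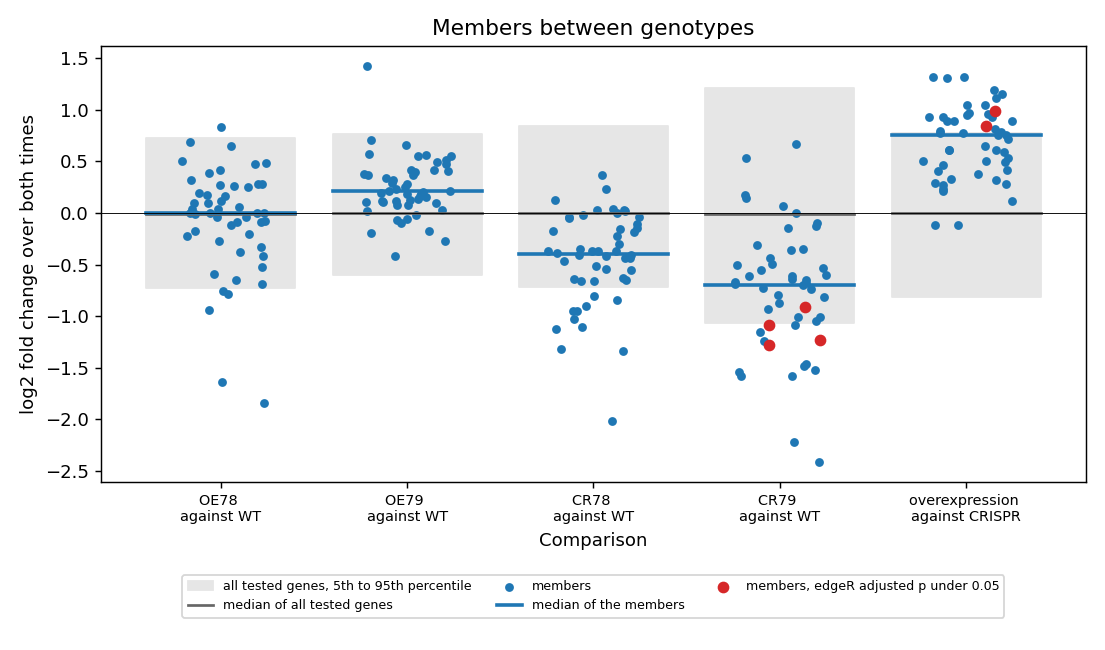
Log2 fold change over both times (vertical axis) of each member (points) in 4 lines against WT and in overexpression against CRISPR lines, from the additive edgeR fit, with the members' median (blue line) and the 5th to 95th percentile of all 25354 tested genes (grey). The median lies at -0.69 in CR79 and 0.76 in overexpression against CRISPR lines, and red points mark the 4 and 2 members with an adjusted p under 0.05.

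The difference in depth between the line classes was also fitted. With a mean for each class at each time, the log2 change with time was less negative in the lines labelled as overexpressing than in the CRISPR lines in 44 of 50 members, against 47.6% of all tested genes, with a median difference of 0.94 on the log2 scale. The ratios behind it are those that chose the members, so nothing is read from it. Of the members 0 passed in edgeR (0.0118% of all tested genes were higher and 0% lower), 20 had an unadjusted p under 0.05 (10.1%), and 5 passed in DESeq2 (2.05%). With the line as a block, which uses the pairing of a line's 2 libraries, 11 members passed (4.02% of all tested genes).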

How the data were processed

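RNA of developing rice seeds was sequenced in 10 libraries, 5 genotypes at 2 times. The deposited values are counts of reads per locus, whole numbers with no normalization, made by the authors with TopHat2 and HTSeq, per the submitters' processing notes. The sources used here do not give versions, the genome build, the annotation or whether strand was used, so close paralogs and overlapping or antisense genes may share reads. Depth was 12267337 to 18040600 counts a library, and 15472 of 55801 features had no read.

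CPM in the text are counts divided by the library total. Members are genes with at least 5 CPM in each 48 HAF library and a 72 HAF to 48 HAF ratio of at most 0.4 in each genotype. All 50 members passed the low-count filter of edgeR 4.0.16 (minimum count 10, R 4.3.3), which kept 25354 genes. Tests were two-sided quasi-likelihood tests with TMM scaling, Benjamini-Hochberg adjustment and a threshold of 0.05, on 1 additive fit of genotype and time (4 residual degrees of freedom, biological coefficient of variation 20.7%), and on a fit of class by time. DESeq2 1.42.0, no filter, other scalings and leaving out libraries were alternatives, and the fits were tested on simulated data. In the additive fit, p-values test a difference between genotypes averaged over both times. With 1 library per genotype and time, the only spread behind them is the departure of these libraries from additive effects. A line's other differences cannot be told apart from its manipulated gene. Each line was labelled at both times, and the additive fit uses that pairing, checked by the correlation between a line's libraries.

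The members, gene lists and tests were chosen with earlier results of these data known, and a list's count is not independent evidence. Named genes are members on a list, the 10 members with the highest mean level at 48 HAF, the 5 with the lowest mean ratio, the 3 nearest the limit on each side, and up to 3 per direction past the threshold in a line comparison. LOX1.1, WRKY62, WRKY76, the members with the largest and smallest SD, the fourth gene called in CR79 and the 8 exceptions were added after their values were seen. The RefSeq gene table holds none of the identifiers. Names are used where the named RefSeq gene lies within 2 Mb of the place that neighbours in identifier order give, as 127 of 174 list pairs and 3 of 3 added ones did. That check cannot tell adjacent loci apart. MADS78, MADS79, RPBF and RISBZ1, whose names are not in that table, rest on the published identifier. No coordinates or sequences are given, as no genome was used here.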

Additional observations from a re-analysis of the deposited data

How the results depend on the processing

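The number of members depended on the limits of the rule. It was 13 at a ratio of 0.3, 190 at 0.5, 32 at a minimum of 10 CPM, 85 at 2 CPM, 86 without OE78 and CR78, and 65 to 124 when both libraries of 1 genotype were left out, highest without OE79. It was 34 with TMM-scaled totals. At a ratio limit of 0.5 the share at or under the limit in a genotype whose ratio was not used was 89.2% in OE78, 66.7% in OE79 and 81.2% in CR79. The shares at a minimum of 10 CPM and with TMM-scaled totals lay within the 95% binomial intervals of the main shares. Those intervals treat genes as independent replicates, which they are not, so they do not measure how stable a share is.

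Members called in CR79 against WT numbered 9 with no low-count filter (2.63% of all genes), 9 in DESeq2 (4.72%), 1 without OE78 and CR78 at 48 HAF (0.280%), and 0 to 4 when 1 library was left out, against 4 (2.19%). In CR78 against WT 1 was called with no filter (0.248%) and 1 in DESeq2 (0.371%), against 0 (0.0749%). In overexpression against CRISPR lines 14 were called with no filter (1.59%), 4 with library totals (0.631%), 1 with DESeq2 size factors in edgeR (0.556%), 18 in DESeq2 (3.03%), and 0 to 4 when 1 library was left out, against 2 (0.572%). In class by time 17 were called with no filter (2.49%), 5 in DESeq2 (2.05%) and 11 with the line as replicate block (4.02%), against 0 without it (0.0118%). The cause of these differences was not tested. Where leaving out a library leaves a genotype with 1 library, that library is fitted at its own time and is assumed to vary like the others. None of the 6 fold changes of the called members reversed under any alternative. Counts of listed genes that fell lay between 1 and 2 for abscisic acid, 2 and 5 for jasmonate and 3 and 6 for defence genes when 1 library was left out. Depth limits the ratios of weakly counted members, since 22 members had under 20 reads in CR79 at 72 HAF.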
